A study of Mus musculus with 16 samples.

Results

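Genes of oligodendrocytes, the myelin-forming cells of the central nervous system, were followed across mice lacking progranulin (Grn), the microglial receptor TREM2, or both. They were chosen by name, with earlier results of these data known, and numbered 10 of the 770 genes on a neuropathology panel. The 4 regulators are the transcription factors Olig2, Sox10, Myrf and Nkx6-2. The 3 lipid enzymes are Ugt8a, Fa2h and Gal3st1. The remaining 3 are Trf, which encodes the iron carrier transferrin, and the receptors Erbb3 and Lpar1. The labels describe total RNA of whole brain from female animals aged 6 months in 4 genotypes: Grn knockout, Trem2 knockout, Grn/Trem2 double knockout and wild type (WT), with 4 mice each. The sources used here do not give the strain, the alleles or whether the deletions were limited to some cells. Transcripts were counted by hybridization to barcoded probes without amplification (nCounter), and values are normalized counts.

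Oligodendrocytes wrap axons in myelin, a membrane rich in galactose-bearing lipids. OLIG2 sets up the lineage, SOX10 acts with it and maintains it, and MYRF, a membrane-bound factor that cuts itself free to enter the nucleus, switches on myelin genes in the maturing cell. NKX6-2 is a homeodomain factor of mature oligodendrocytes. UGT8A joins galactose to ceramide to make galactosylceramide, FA2H adds the hydroxyl group that many fatty acids of that lipid carry, and GAL3ST1 sulphates it to sulphatide. ERBB3 is a receptor subunit for neuregulins, and LPAR1 is a receptor for lysophosphatidic acid.

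Promoters are shown so that their sequence can be set beside the values. They come from a RefSeq promoter table of build GRCm38.p6, in which 5 of the 10 members matched, and run from 250 bases before to 50 bases after a start. Between animals of 1 genotype, Olig2, Nkx6-2, Ugt8a and Lpar1 had Pearson r of 0.51 to 0.76 with one another, and Gal3st1 had lower r with them. Of these genes Olig2 passed the permutation test described below only with Nkx6-2 (permutation adjusted p = 0.166 with Ugt8a and 0.0912 with Lpar1). Capitals mark matches, on either strand, to the E-box CANNTG (the class of site bound by factors such as OLIG2), AACAAT (SOX factors), TAATTA (homeodomain factors) and CTGGCAC or CTGGTAC (MYRF). Sox10, Myrf, Fa2h, Trf and Erbb3 had no entry. Of the 3 starts listed for Gal3st1 the first is shown, and of the 3 for Lpar1 the first and the last.
Olig2, chr16:91225300-91225599, plus strand: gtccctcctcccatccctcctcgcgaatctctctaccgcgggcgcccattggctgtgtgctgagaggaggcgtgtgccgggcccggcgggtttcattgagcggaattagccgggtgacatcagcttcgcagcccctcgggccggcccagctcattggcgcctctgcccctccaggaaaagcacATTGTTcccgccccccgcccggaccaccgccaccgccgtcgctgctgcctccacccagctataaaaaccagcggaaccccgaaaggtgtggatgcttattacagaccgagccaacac
Nkx6-2, chr7:139582748-139583047, minus strand: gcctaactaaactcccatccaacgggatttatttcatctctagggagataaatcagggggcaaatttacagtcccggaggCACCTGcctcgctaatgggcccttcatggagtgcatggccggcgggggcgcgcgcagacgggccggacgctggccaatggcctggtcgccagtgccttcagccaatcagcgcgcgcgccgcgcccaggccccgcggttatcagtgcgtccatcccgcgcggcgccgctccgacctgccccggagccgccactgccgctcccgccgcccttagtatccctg
Ugt8a, chr3:125938603-125938902, minus strand: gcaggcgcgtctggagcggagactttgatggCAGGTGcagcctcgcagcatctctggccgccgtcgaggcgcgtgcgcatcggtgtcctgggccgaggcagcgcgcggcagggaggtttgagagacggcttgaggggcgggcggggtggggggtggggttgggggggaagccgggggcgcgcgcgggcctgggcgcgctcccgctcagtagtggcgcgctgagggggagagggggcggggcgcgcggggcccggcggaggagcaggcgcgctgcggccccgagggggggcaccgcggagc
Gal3st1, chr11:3983386-3983685, plus strand: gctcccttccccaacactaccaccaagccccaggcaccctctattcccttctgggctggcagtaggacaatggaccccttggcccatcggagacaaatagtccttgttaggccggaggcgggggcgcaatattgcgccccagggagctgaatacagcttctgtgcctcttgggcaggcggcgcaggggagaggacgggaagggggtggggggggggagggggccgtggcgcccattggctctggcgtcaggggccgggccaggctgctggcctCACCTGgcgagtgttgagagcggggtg
Lpar1 first start, chr4:58553442-58553741, minus strand: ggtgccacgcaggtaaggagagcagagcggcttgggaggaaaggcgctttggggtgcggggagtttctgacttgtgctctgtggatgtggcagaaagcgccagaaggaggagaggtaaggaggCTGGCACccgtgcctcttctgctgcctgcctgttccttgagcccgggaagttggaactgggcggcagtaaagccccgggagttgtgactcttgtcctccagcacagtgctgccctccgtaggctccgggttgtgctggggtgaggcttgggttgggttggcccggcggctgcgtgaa
Lpar1 last start, chr4:58499354-58499653, minus strand: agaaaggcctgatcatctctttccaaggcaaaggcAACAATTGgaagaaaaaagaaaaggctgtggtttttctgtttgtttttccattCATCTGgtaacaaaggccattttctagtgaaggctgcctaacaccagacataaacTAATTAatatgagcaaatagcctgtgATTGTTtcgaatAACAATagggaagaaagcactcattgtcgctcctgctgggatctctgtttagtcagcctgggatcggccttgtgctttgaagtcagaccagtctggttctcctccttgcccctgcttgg

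Matches to these letters were few. Nkx6-2 and Ugt8a each held 1 E-box, beginning 170 and 219 bases before the start, and Gal3st1 held 1 beginning 23 bases after it. Olig2 held 1 SOX match, 67 bases before its start. In Lpar1 the first start held 1 MYRF match (127 bases before), while the last held 2 E-boxes, 3 SOX matches and 1 TAATTA, with the E-box and the SOX match at 213 and 215 bases before the start sharing bases. The second Lpar1 start, not shown, held 0 matches to any of the letters. Of 32851 promoter windows of the same length in the table, 72.3% held an E-box, 10.7% AACAAT, 5.29% TAATTA, 5.01% CTGGCAC and 2.24% CTGGTAC. The GC content was 78.3% in the Ugt8a window, 66.7% in Nkx6-2 and 43.7% at the last start of Lpar1.

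The assay gave 477113 to 767742 gene counts per animal. The knocked-out genes followed the labels: Grn lay between 9.48 and 23.1 in the 8 animals without it, against 544 or more in the other 8, and Trem2 between 5.02 and 35.4, against 128 or more. Background thresholds, the mean plus 2 SD of an animal's negative controls, ran from 16.3 to 39.1. All 10 members exceeded the threshold in all 16 animals, except Nkx6-2 in double knockout replicate 4, at 31.2 against a threshold of 36.1. All 9 measured genes of a myelin membrane list, 6 of 6 astrocyte, 4 of 4 neuronal and 6 of 6 endothelial markers, and 7 of 8 microglial markers were also above it in every animal. Negative control probes ran higher in WT: 9.125 to 14.125 counts per probe in the Grn knockout, 10.6 to 14.1 in the Trem2 knockout and 12.4 to 15.4 in the double knockout, against 14.6 to 19.9 in WT. Probes differ in efficiency and the values are not per length, so levels are compared between animals and never between genes.

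No member passed the test in any comparison. In each knockout most members had log2 fold changes slightly below 0, by 0.32 at most, and above 0 when scaled to the positive controls, and every 95% confidence interval included 0. With limma, fitted over 708 tested genes and 4 genotypes with Benjamini-Hochberg adjustment, 0 of 10 members passed an adjusted p of 0.05 in the Grn knockout against WT, where 0.565% of all tested genes passed. The count was also 0 of 10 in the Trem2 knockout against WT (0.141% of all genes), the double knockout against WT (0.282%), the double knockout against the Grn knockout (0.282%) and against the Trem2 knockout (0.424%). It was 0 of 10 for the Grn by Trem2 interaction, where 0% of all genes passed, and for the mean of the 3 knockouts against WT (0.282%). At an unadjusted p under 0.05 the members gave 0 in each of these 7 comparisons, in the same order, where 5.37%, 4.66%, 7.63%, 7.06%, 5.51%, 3.39% and 6.64% of all genes passed. The limma method voom, run on counts recovered from the values, also called 0. In none of the 5 comparisons of 2 groups did a member's 4 animals all lie on 1 side of the other 4, which 3.39%, 3.39%, 5.37%, 4.38% and 3.95% of all genes did.

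**Figure D1:**
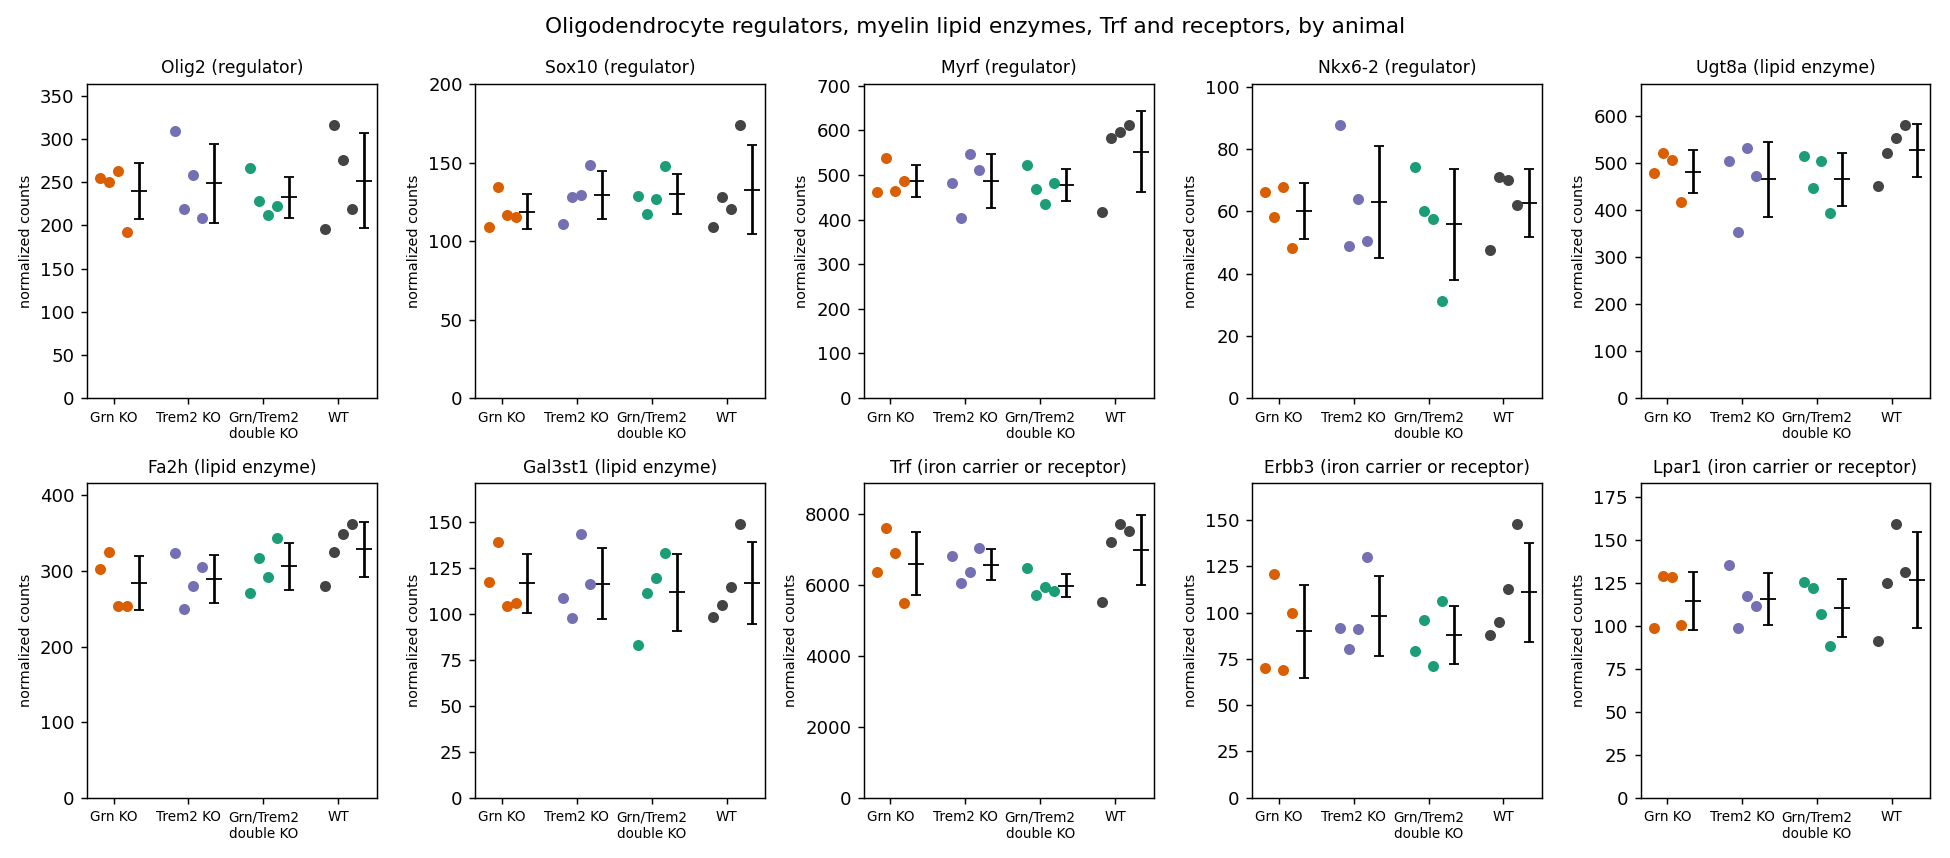
Normalized counts of the 10 genes (vertical axes, starting at 0) in each of the 16 animals, grouped by genotype, with points in replicate order and the mean ± SD (n = 4) as a black bar. The groups overlap in every panel, and the leftmost WT point, replicate 1, is the lowest WT animal in all 10.

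Among the regulators, Olig2 measured 255, 250.1, 263 and 192 in the Grn knockout, 309, 219, 259 and 209 in the Trem2 knockout, and 266, 228, 213 and 223 in the double knockout, against 196, 317, 276 and 219 in WT. The WT animals alone spanned nearly the whole range, and group means ran from 232 ± 23.4 in the double knockout to 252 ± 54.7 in WT (SD, n = 4). The log2 fold change over WT was -0.06 in the Grn, -0.01 in the Trem2 and -0.10 in the double knockout (limma adjusted p = 0.996, 0.989 and 0.881).

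Sox10 measured 109, 135, 116 and 116 in the Grn knockout, 111, 128, 129 and 149 in the Trem2 knockout, and 128.5, 117, 127 and 148 in the double knockout, against 109, 128, 121 and 174 in WT. WT replicate 4 was the highest of the 16 animals, and the other WT animals lay inside the range of the knockouts. The log2 fold changes were -0.14, -0.02 and -0.01 in the same order of knockouts (limma adjusted p = 0.996, 0.969 and 0.989).

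Myrf measured 461, 538, 463 and 485 in the Grn knockout, 482, 404, 548 and 510.4 in the Trem2 knockout, and 522, 469, 435 and 481 in the double knockout, against 416, 584, 597 and 613 in WT. WT replicates 2, 3 and 4 exceeded all 12 knockout animals, while WT replicate 1 lay below all but 1 of them. Means were 487 ± 35.9, 486 ± 60.8 and 477 ± 36.0 in the Grn, Trem2 and double knockouts and 552 ± 91.7 in WT (SD, n = 4 each). Against WT the log2 fold change was -0.17 (SE 0.12) in the Grn, -0.18 (SE 0.12) in the Trem2 and -0.20 (SE 0.12) in the double knockout, with limma adjusted p of 0.996, 0.806 and 0.713.

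Nkx6-2, which had the fewest counts, measured 66.25, 58.3, 67.7 and 48.2 in the Grn knockout, 87.9, 48.9, 64.1 and 50.6 in the Trem2 knockout, and 74.3, 59.98, 57.7 and 31.2 in the double knockout, against 47.5, 70.9, 70.2 and 62.0 in WT. The highest and the lowest of the 16 values were both in knockouts lacking Trem2. The log2 fold change in the double knockout was -0.21, with a 95% confidence interval of -0.72 to 0.29 (limma adjusted p = 0.804). The values in the Grn and Trem2 knockouts were -0.05 and -0.02 (limma adjusted p = 0.996 and 0.989). Its SD within genotypes was 0.37 on the log2 scale, where counting error alone, at group means of 54.75 to 60.25 counts, would give 0.20.

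Among the lipid enzymes, Ugt8a measured 479, 521, 507 and 418 in the Grn knockout, 505, 352, 531 and 472 in the Trem2 knockout, and 514, 448, 505 and 394 in the double knockout, against 452, 522, 553 and 582 in WT. WT replicates 3 and 4 exceeded all 12 knockout animals. The log2 fold changes were -0.13 in the Grn, -0.19 in the Trem2 and -0.18 in the double knockout, each with an SE of 0.13 (limma adjusted p = 0.996, 0.806 and 0.715).

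Fa2h measured 303, 325, 253 and 254 in the Grn knockout, 323, 249, 280.3 and 305 in the Trem2 knockout, and 271, 317, 292 and 344 in the double knockout, against 279, 325, 348 and 361 in WT. WT replicates 3 and 4 again stood above all knockout animals. The log2 fold change was -0.21 (95% confidence interval -0.45 to 0.03) in the Grn, -0.18 in the Trem2 and -0.10 in the double knockout (limma adjusted p = 0.926, 0.806 and 0.804). The Fa2h interaction term, 0.29 with an SE of 0.16, had the smallest unadjusted interaction p of the 10 members (0.0877), and its limma adjusted p was 0.955.

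Gal3st1 measured 117, 139, 104 and 106 in the Grn knockout, 109, 97.75, 143 and 116 in the Trem2 knockout, and 83.3, 111, 119 and 133 in the double knockout, against 98.5, 105, 115 and 149 in WT. The means of all 4 groups lay within 5 counts of each other, at 117 ± 15.9, 116 ± 19.5, 112 ± 21.0 and, in WT, 117 ± 22.3 (SD, n = 4 each). Its log2 fold changes were 0.01, 0.00 and -0.06 in the Grn, Trem2 and double knockouts, and the lowest bound of their intervals was -0.41 (limma adjusted p = 0.996, 0.9997 and 0.925).

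Trf, the most precisely counted member, measured 6374, 7597, 6911 and 5502 in the Grn knockout, 6812, 6062, 6359 and 7046 in the Trem2 knockout, and 6462, 5708, 5932 and 5822 in the double knockout, against 5519, 7200.3, 7704 and 7506 in WT. All 4 double knockout animals lay below WT replicates 2, 3 and 4 and above WT replicate 1. The mean was 5981 ± 334 in the double knockout and 6982 ± 997 in WT (SD, n = 4 each; log2 fold change -0.21, SE 0.11, limma adjusted p = 0.696). In the Grn and Trem2 knockouts the log2 fold change was -0.08 in each (limma adjusted p = 0.996 and 0.900). Its within-genotype variance was 74.4 times that of counting error; for the other members this ratio ran from 2.09 for Sox10 to 7.73 for Ugt8a.

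Erbb3 measured 69.9, 121, 69.1 and 99.7 in the Grn knockout, 91.55, 80.4, 91.3 and 129.7 in the Trem2 knockout, and 79.3, 95.8, 71.2 and 106 in the double knockout, against 88.1, 94.9, 113 and 148 in WT. Its log2 fold changes were the largest of the 10 in the Grn knockout (-0.31) and the double knockout (-0.32), but the SE was 0.21 and the groups overlapped (limma adjusted p = 0.996 and 0.713). In the Trem2 knockout the value was -0.17 (limma adjusted p = 0.878).

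Lpar1 measured 98.9, 129, 129 and 101 in the Grn knockout, 135, 98.8, 117 and 112 in the Trem2 knockout, and 125, 122, 107 and 88.3 in the double knockout, against 91.6, 125, 159 and 132 in WT. WT replicate 3 was the highest of the 16 animals and WT replicate 1 the second lowest. The log2 fold changes were -0.13, -0.11 and -0.18 in the Grn, Trem2 and double knockouts (limma adjusted p = 0.996, 0.900 and 0.777).

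**Figure D2:**
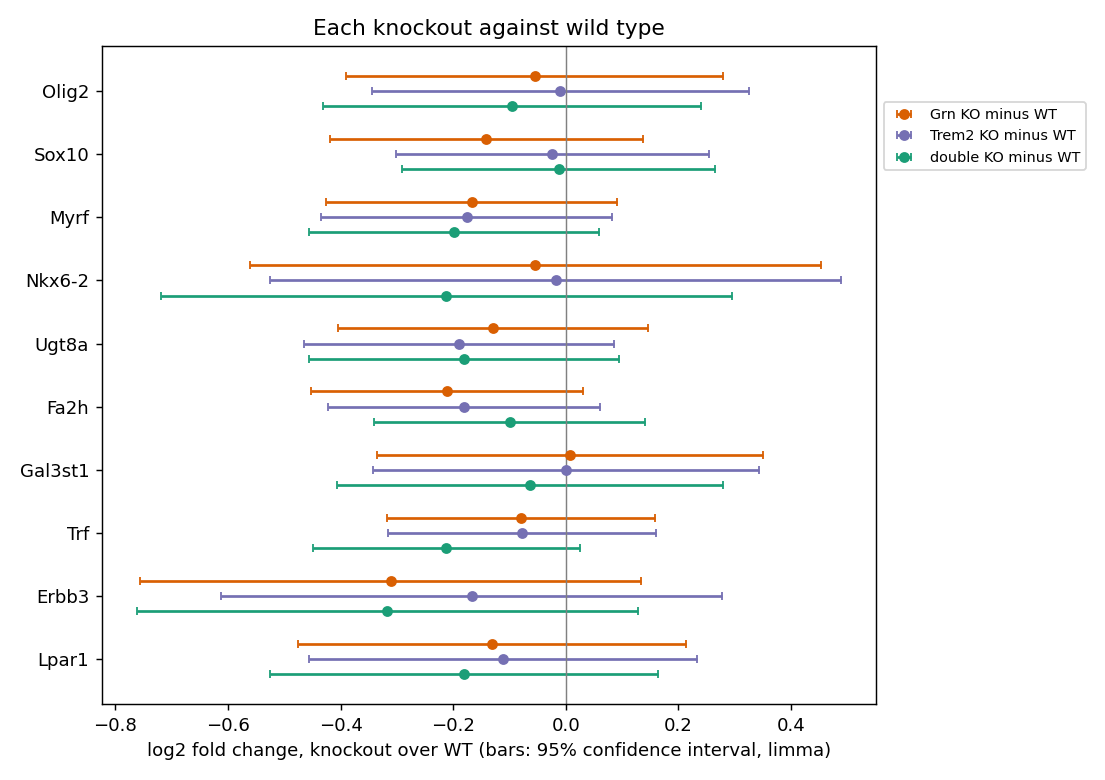
Log2 fold change of each of the 10 genes (rows) in the Grn, Trem2 and double knockouts over WT (horizontal axis, log2 scale), with 95% confidence intervals from limma as bars, n = 4 per group. All 30 intervals include 0, and the largest values are those of Erbb3, at -0.32 in the double knockout and -0.31 in the Grn knockout.

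Fold changes lay mostly on 1 side of 0 without passing the test. Of the 10 members, 9 had a log2 fold change below 0 in the Grn, 9 in the Trem2 and 10 in the double knockout (0 in each with positive control scaling), where 58.8%, 55.5% and 50.7% of all tested genes did. The member medians were -0.13, -0.09 and -0.18, beside -0.02, -0.02 and 0.00 over all genes. Single animals moved these medians. In the Grn knockout the median was -0.21 without WT replicate 1, -0.07 without WT replicate 3 and -0.07 without Grn knockout replicate 4. In the Trem2 knockout it was -0.22, -0.04 and -0.05 without WT replicates 1, 3 and 4, and -0.16 and -0.04 without Trem2 knockout replicates 1 and 2. These 3 comparisons share the WT animals, so the repeated direction is not independent, and 9 of the 10 members against 31.9% of all genes were below WT in all 3. The members also varied together in part between animals (median Pearson r 0.47 over 45 pairs), so such counts are not of independent genes. The mean of the 3 knockouts against WT, a single comparison, had all 10 members below 0 (54.7% of all genes), with a median of -0.13 and values from -0.27 (Erbb3) to -0.02 (Gal3st1); the smallest limma adjusted p was 0.759. Its median was -0.24 without WT replicate 1 and -0.09 without WT replicate 3. After subtraction of the negative control mean, the counts below 0 were 8, 6 and 9 in the Grn, Trem2 and double knockouts. In bulk RNA, fewer cells of a type and less RNA per cell cannot be told apart. Scaled to the positive controls in place of the reference genes, the median of all genes in the knockouts against WT moved to 0.33, 0.19 and 0.36, and 0 of 10 members lay below 0, with member medians of 0.22, 0.12 and 0.18.

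Between the double knockout and each single knockout, the member medians were smaller in size than those against WT. The Grn and Trem2 knockouts were not compared with each other. Against the Grn knockout, the double knockout had 8 of 10 members below 0 (44.1% of all genes) with a median of -0.04, and against the Trem2 knockout 7 of 10 (44.6%) with a median of -0.07. No value exceeded 0.20 in size, the largest being Nkx6-2 at -0.19 against the Trem2 knockout. With 1 animal left out these medians ran from -0.11 (without Grn knockout replicate 4) to 0.01 (without Grn knockout replicate 2) and from -0.14 (without Trem2 knockout replicate 2) to -0.02 (without Trem2 knockout replicate 1). The smallest limma adjusted p was 0.823 and 0.971 in these 2 comparisons. Without double knockout replicate 1 the lowest member values were -0.32 against the Grn and -0.35 against the Trem2 knockout. The interaction had 4 of 10 members below 0 (40.4% of all genes), with a median of 0.10 and a smallest limma adjusted p of 0.955. That median was 0.21 without WT replicate 1 and 0.02 without WT replicate 4, and without Trem2 knockout replicate 2 it was -0.00036, with 5 of 10 members below 0. Scaled to the positive controls, the double knockout had 7 of 10 members below 0 against the Grn knockout, with a median of -0.03. Against the Trem2 knockout it had 2 of 10 below 0 on that scale, with a median of 0.08. The interaction then had 9 of 10 members below 0 and a median of -0.10, so these directions depended on the scaling. The medians of all tested genes on that scale were 0.03 against the Grn knockout, 0.16 against the Trem2 knockout and -0.16 for the interaction. The median SE of the members there was 0.32, 0.32 and 0.45, so the shift was not particular to the members.

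Regulators and lipid enzymes were set side by side as the mean log2 deviation of each animal from the WT mean, over 4 and 3 genes. Regulators averaged -0.10 ± 0.11 in the Grn, -0.06 ± 0.15 in the Trem2 and -0.13 ± 0.15 in the double knockout, against a WT SD of 0.23 (n = 4 each). Lipid enzymes averaged -0.11 ± 0.15, -0.12 ± 0.19 and -0.12 ± 0.10 in the same knockouts, against a WT SD of 0.18. Both classes lay below the WT mean by less than the SD of the WT animals, and above it when scaled to the positive controls.

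The difference between the classes, enzymes minus regulators, averaged -0.01 ± 0.10 in the Grn, -0.07 ± 0.10 in the Trem2 and 0.01 ± 0.24 in the double knockout, against a WT SD of 0.15. No genotype therefore separated the classes by more than the replicate spread. Within the double knockout they parted most between animals. Replicate 1 had regulators at 0.07 and enzymes at -0.25, and replicate 4 had regulators at -0.28 and enzymes at -0.04.

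**Figure D3:**
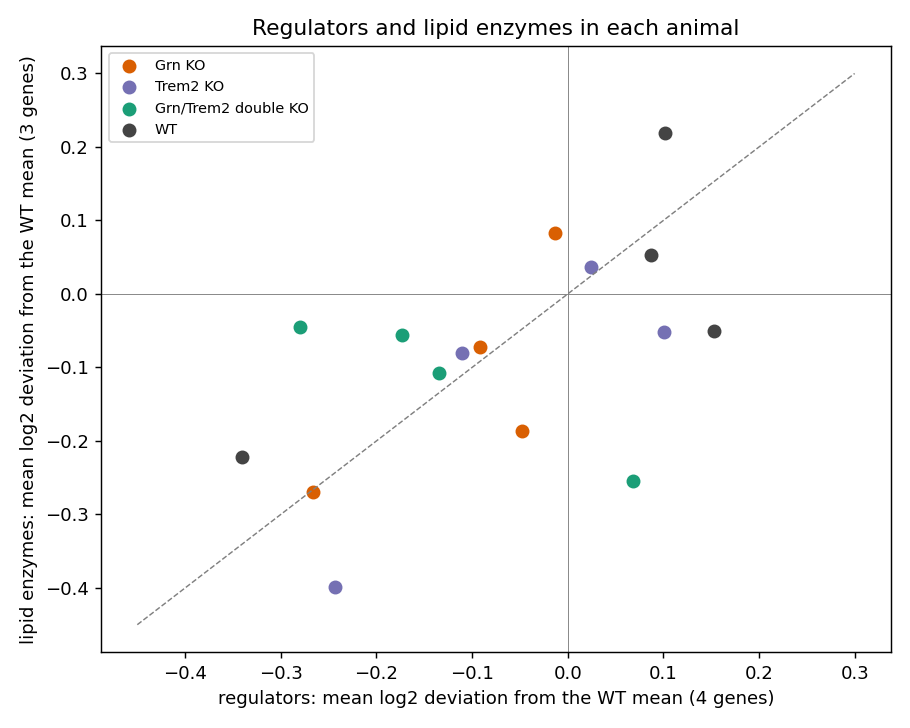
Mean log2 deviation from the WT mean of the 4 regulators (horizontal axis) and of the 3 lipid enzymes (vertical axis) in each of 16 animals, coloured by genotype; the dashed line marks equal deviation. WT spreads from -0.34 to 0.15 on the regulator axis and covers the knockouts other than Trem2 knockout replicate 2, Grn knockout replicate 4 and double knockout replicate 1 on the enzyme axis.

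Between animals of 1 genotype the members moved together in part. After each genotype's mean was removed, 39 of the 45 member pairs had a Pearson r above 0 over the 16 animals (86.7%, beside 56.1% of the 250278 pairs of tested genes), with a median of 0.47 beside 0.06. The member median was 0.33 without WT replicate 1, 0.55 without double knockout replicate 4 and 0.88 with positive control scaling. The genes of an animal share its scale factor and its depth. Of the 45 pairs, 7 passed a two-sided permutation test within genotypes (100000 resamples, Benjamini-Hochberg over 45 pairs), and 1 passed with Spearman's rho. An r of at least 0.686, the smallest that passed, was reached by 9 member pairs (20%) and by 3.30% of all gene pairs.

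Olig2 and Nkx6-2 gave the smallest p, with r = 0.725 and rho = 0.856 (n = 16, permutation p = 0.00042 and 0.0001, adjusted p = 0.0189 and 0.00450). Without the 2 animals farthest from the median of Olig2, r was 0.660. Nkx6-2 also moved with Ugt8a (r = 0.721, rho = 0.562, permutation adjusted p = 0.0318 and 0.174) and with Lpar1 (r = 0.762, rho = 0.768, permutation adjusted p = 0.0265 and 0.0817). Ugt8a moved with Lpar1 (r = 0.733, rho = 0.685, permutation adjusted p = 0.0285 and 0.0905) and with Trf (r = 0.686, rho = 0.574, permutation adjusted p = 0.0265 and 0.106). Trf and Lpar1 had r = 0.776 and rho = 0.694 (permutation adjusted p = 0.0298 and 0.0905). Without the 2 farthest animals these 5 pairs had r of 0.614, 0.644, 0.680, 0.780 and 0.664.

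Sox10 and Erbb3 formed the remaining pair that passed (r = 0.713, rho = 0.506, permutation adjusted p = 0.0318 and 0.173), and r was 0.547 without the 2 farthest animals. Its lowest r with 1 animal left out was 0.622, without WT replicate 4, which had the highest Sox10, Erbb3 and Gal3st1 of all 16. The 6 pairs below 0 all joined Olig2 or Nkx6-2 to Sox10, Erbb3 or Gal3st1, with r from -0.11 to -0.33, none past the test. Among the 12 pairs of a regulator and a lipid enzyme the median r was 0.43, beside 0.39 for the 6 pairs of regulators and 0.37 for the 3 pairs of lipid enzymes. Trf, Erbb3 and Lpar1 had a median r of 0.59 with the regulators (12 pairs) and 0.57 with the lipid enzymes (9 pairs), beside 0.36 among themselves (3 pairs). Ugt8a was nearer to Nkx6-2 (0.721) than to Fa2h (0.372) or Gal3st1 (0.325), and Gal3st1 nearer to Fa2h (r = 0.691, rho = 0.709, permutation adjusted p = 0.0544 and 0.0905) and Sox10 (0.604) than to Nkx6-2 (-0.25). These differences between correlations were not tested.

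The count of pairs past the test depended on single animals. It was 0 without Grn knockout replicate 4 or without Trem2 knockout replicate 2, and 1 without WT replicate 1 or without double knockout replicate 1. It was 2 without double knockout replicate 4 and 4 without WT replicate 3. Leaving out 1 animal at a time kept the r of each of the 7 pairs at 0.622 or above. The positive control sum, a measure of assay yield, ran from 17588 to 45949 and moved with Sox10 in the opposite direction (r = -0.707, rho = -0.721, n = 16, permutation p = 0.0137 and 0.00919), but after adjustment over 30 relations of the members to scale factor and controls its p was 0.412. Without the 2 farthest animals that r was -0.45. Gal3st1 had r = -0.575 with the same sum and rho = -0.521 (permutation p = 0.0481 and 0.0716, adjusted p = 0.722), and its part in the pair values was not tested.

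**Figure D4:**
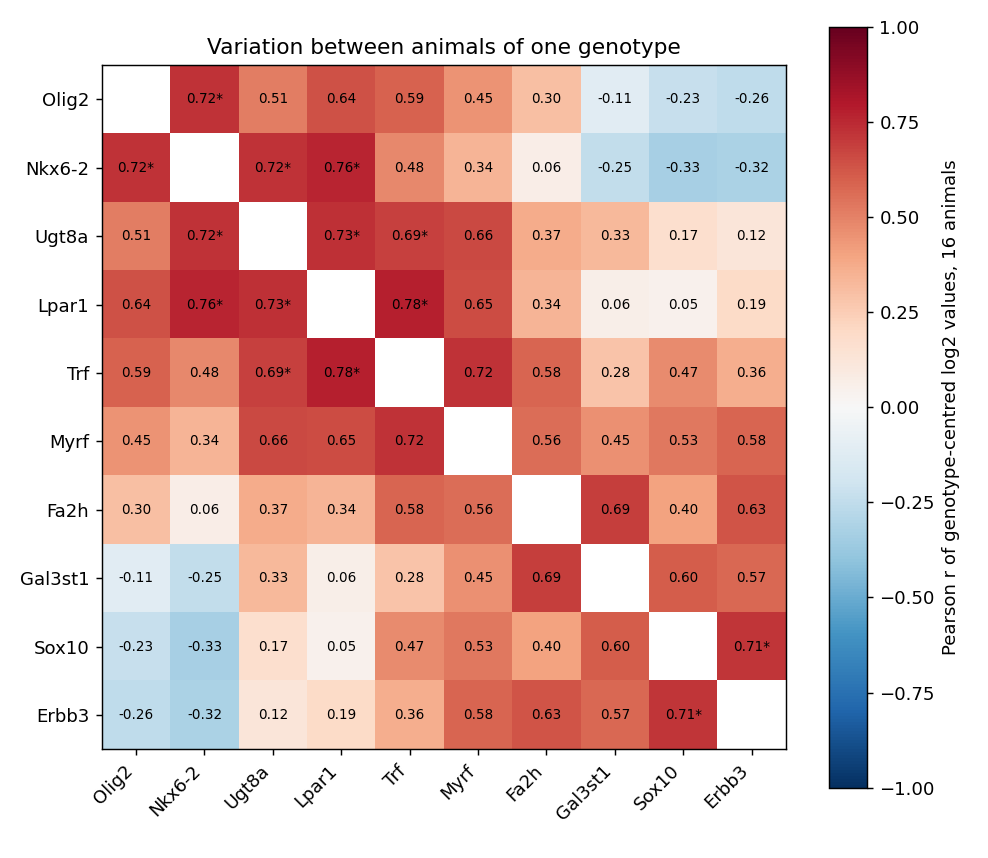
Pearson r of log2 values after removal of each genotype's mean, for all pairs of the 10 genes over 16 animals (colour and printed value); asterisks mark the 7 pairs past the permutation test adjusted over 45 pairs. Olig2, Nkx6-2, Ugt8a, Lpar1 and Trf have r of 0.48 to 0.78 with one another, and the negative values link Olig2 and Nkx6-2 to Gal3st1, Sox10 and Erbb3.

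WT replicate 1 stood apart among the WT animals. It was the lowest WT animal for all 10 members and for all 9 measured genes of the myelin membrane list, but for 20.5% of all 708 tested genes. Its scale factor was 1.16, its gene counts 594993 and its positive control sum 40089, against 19912 to 45949 in all WT animals. Without it, the fold changes of Myrf and Trf in the double knockout against WT were -0.33 and -0.32, with a limma adjusted p of 0.189 each, and the member median moved from -0.18 to -0.29 with 0 of 10 members past the test. Without WT replicate 3 that median was -0.11, with 10 of 10 members below 0. Without WT replicate 4, the animal highest among WT for 6 members and for 42.9% of all tested genes, it was -0.15 and 8 of 10 members were below 0.

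Some knockout animals stood at the ends of their groups. Trem2 knockout replicate 2 was the lowest of its group for 8 members (24.4% of all tested genes), and Grn knockout replicate 2 was the highest of its group for 8 members (22.2% of all tested genes). In the double knockout, replicate 1 was highest for Olig2, Myrf, Nkx6-2, Ugt8a, Trf and Lpar1 (23.0% of all tested genes) and lowest for Fa2h and Gal3st1 (36.0%). Replicate 4 was highest for Sox10, Fa2h, Gal3st1 and Erbb3 (47.3%) and lowest for Nkx6-2, Ugt8a and Lpar1 (20.1%), and had the fewest positive control counts (17588).

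Outside the 10 genes, the panel gene with the most similar variation between animals was named for each, by the highest Pearson r of genotype-centred values over 16 animals. Nkx6-2 and Lpar1 were both nearest to Mbp, which encodes myelin basic protein (r = 0.889 and 0.828, rho = 0.832 and 0.871). Trf was nearest to Mag, an adhesion protein of myelin (r = 0.902, rho = 0.876), and Ugt8a to Car2, a carbonic anhydrase (r = 0.907, rho = 0.879). Olig2 was nearest to S100b, a calcium-binding protein of glia (r = 0.760, rho = 0.871), and Myrf to Pls1, an actin-bundling plastin (r = 0.867, rho = 0.844). The nearest genes of the others were Ring1, a Polycomb protein, for Sox10 (r = 0.857, rho = 0.838), and Gfpt1, an enzyme of hexosamine synthesis, for Erbb3 (r = 0.788, rho = 0.712). Gal3st1 was nearest to Jam3, a junctional adhesion molecule (r = 0.843, rho = 0.776), and Fa2h to Atp6v0e, a subunit of the vacuolar proton pump (r = 0.801, rho = 0.815). Each is the highest of many values and is given as a description, with no test.

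Myelin membrane genes, 9 of a list of 20 measured and tested, gave 0 of 9 past the test for the mean of the 3 knockouts against WT, with 9 of 9 below 0 (54.7% of all genes) and a median of -0.22 on the reference gene scale. The 4 with the smallest p there were Mal, a myelin proteolipid, Pllp, plasmolipin, and the myelin adhesion proteins Mog and Mag. Their log2 values were -0.38 (Mal), -0.39 (Pllp), -0.25 (Mog) and -0.26 (Mag), with limma adjusted p of 0.186, 0.223, 0.714 and 0.749. Mal measured 1317 ± 278 in the Grn, 1237 ± 142 in the Trem2 and 1050.2 ± 43.1 in the double knockout, against 1544 ± 115 in WT (SD, n = 4 each). The 4 double knockout animals, at 998 to 1098, all lay below the 4 WT animals, at 1424 to 1670 (groups of 5.37% of all tested genes did not overlap in that comparison), and the log2 fold change was -0.55 (limma adjusted p = 0.0920). Pllp averaged 271 ± 24.3 in the Grn, 266 ± 30.3 in the Trem2 and 289 ± 40.2 in the double knockout, against 363 ± 61.7 in WT (SD, n = 4 each).

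Related lists gave 0 genes past the test in the same comparison. The sphingolipid list, which holds ceramide synthases and the lysosomal enzymes that break down galactosylceramide and sulphatide, had 4 of 8 tested genes below 0 and a median of 0.01. ErbB and lysophosphatidic acid partners had 3 of 3 below 0 (median -0.07) and iron genes 1 of 2, and of a sterol list 0 genes were measured. The 1 precursor marker measured had a log2 value of 0.08.

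Markers of other cells were read beside these values. For the mean of the 3 knockouts against WT the medians were 0.13 for 7 microglial genes, -0.02 for 6 astrocyte genes, -0.09 for 4 neuronal genes and -0.18 for 6 endothelial genes, with 0 genes past the test. In the double knockout the endothelial list had 6 of 6 genes below 0 (50.7% of all genes) and a median of -0.32. Its summed level was 743 to 866 in the double knockout, 701 to 1151 in the Trem2 knockout and 838 to 1065 in the Grn knockout, against 920.3 to 1113 in WT. That sum adds probes of unlike efficiency, so the genes with the highest counts weigh most in it. The part of the endothelial genes in the member values was not tested.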

How the data were processed

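For each of 16 samples the deposited table lists signal values of 770 genes and of 6 positive and 8 negative controls. How the authors made them is not stated in the labels, so it was inferred. At least 99.7% of each sample's deposited gene signals are whole multiples of 1 factor (0.907 to 1.36), within 0.0075, and the geometric mean of 10 reference genes is about 321.56 in every sample, so the values are scaled to these genes. Control probes are unscaled whole counts.

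Genes with a mean of at least 20 (708) were fitted as log2(value + 1) with limma 3.58.1 in R 4.3.3, with 4 group means and 7 contrasts in 1 fit, two-sided, Benjamini-Hochberg adjusted over all 708 genes at a threshold of 0.05. Fold changes are on that scale. Correlations used genotype-centred values (numpy 2.4.6, Python 3.11.15). The fit and the correlation code were tested on simulated data. Replicates are numbered by accession order within a genotype, which pairs nothing. Litters and assay batches are unknown, so p-values measure the spread between these samples.

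The members and lists were chosen with earlier results of these data known. Named genes were the 10 members, the panel gene nearest to each, 4 myelin membrane genes with the smallest p, and genes of other lists only if called. The count models planned as alternatives were not run because the deposited columns, which mix scaled genes with unscaled controls, were taken as signal, and limma's voom on recovered counts, added after seeing the data, took their place.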

Additional observations from a re-analysis of the deposited data

Results flagged for a closer look

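Among 52 sets of 4 animals examined (10 genes, the 2 class means and their difference in 4 genotypes), 2 held an animal whose gap to the nearest other exceeded Dixon's 95% critical value. Chance gives about 1 in 20. Both were WT replicate 1. Its Myrf level was 416, against 584 to 613 in the other WT animals (gap 0.852 of the range). Its mean regulator deviation was -0.34 on the log2 scale, against 0.09 to 0.15 in the other WT animals (gap 0.867 of the range), and Myrf is part of that mean.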

How the results depend on the processing

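Under 28 other settings, 16 of which left out 1 animal, 0 of the 10 members passed in any comparison where the setting gave a value, with the smallest adjusted p 0.149 (Myrf, mean of the 3 knockouts against WT, without WT replicate 1). Of 1870 member values outside positive control scaling, 113 changed sign, all from a main value of at most 0.21 in size; with positive control scaling 49 of 70 did. No paired analysis was possible because the labels give no replicate numbers that groups share. The 7 member pairs past the permutation test became 44 with positive control scaling, which adds 1 shift to all genes of an animal, 10 after recentring on the median and 5 with quantile normalization; leaving out 1 animal gave 0 to 10. The enzyme minus regulator difference ranged from -0.07 to 0.04 (Grn knockout), -0.13 to -0.03 (Trem2 knockout) and -0.06 to 0.13 (double knockout) with 1 animal left out. Counts over all genes rose in some settings: in the Trem2 knockout from 1 to 3 (positive controls), in the double knockout from 2 to 8 (quantile) against WT and from 2 to 6 (sample weights) against the Grn knockout, and for the interaction from 0 to 1 (positive controls); they fell from 4 to 1 in the Grn knockout and from 2 to 1 against the Grn knockout (positive controls), and 1 animal left out gave 0 to 6 over the 7 comparisons. Counting error limits Nkx6-2, Erbb3, Gal3st1, Lpar1 and Sox10 most. The 2 planned count models were not run; limma's voom, chosen after seeing the data, called 0 members.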
